A study of Drosophila melanogaster with 8 samples.

Results

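A set of 218 genes, counted by CG number, was raised in fly heads at 18°C while differing little in mean level between 25°C and 29°C. The genes were chosen by their own levels in the deposited table, which gives for each annotated transcript the average coverage by reads per base pair. Each of the 8 libraries was scaled to a sum of 1000000, a level was taken as log2(scaled value + 1), and only transcripts whose mean over the libraries, in scaled values, was 5 or more were kept. A transcript entered the set when its mean level at 29°C lay within 0.25 of that at 25°C, its mean level at 18°C was at least 0.6 above that at 25°C, and every 18°C library lay above every 25°C and 29°C library. Of the 12577 transcripts kept, 470 met all of these conditions (3.74%), and the one with the highest mean among them was taken for each gene, which gave 218 of 6731 genes. The values at all temperatures selected the members, so their differences between temperatures are descriptions and carry no test.

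All flies were of the wild-type strain Canton-S and were held as adults in light-dark cycles at the temperature named. The methods describe rearing at 25°C, with young adults then left there or moved to 18°C or 29°C. By this account the 18°C and 29°C groups also went through a change of temperature, which the 25°C group did not. The part of this change in the differences was not tested, and the methods give no length of stay for these libraries. RNA of whole heads was selected for polyA tails and sequenced from both ends. The 8 libraries were 18°C at ZT3, ZT15 and ZT23, 25°C at ZT3 and ZT15, and 29°C at ZT3, ZT15 and ZT23, with 1 library each. ZT (zeitgeber time) is the number of hours after lights on, and the labels give ZT23 for the time point that the methods call ZT21. Time points stood in as replicates within a temperature, so the spread within a temperature includes changes over the day, and no age, sex or separate culture is given in the labels used here. All library values below are scaled values, listed within each temperature in the order of zeitgeber time (at 25°C without ZT23). As coverage they hold no read numbers, and with the depth unknown no counting error can be given.

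Flies take the temperature of their surroundings, and their tissues adjust the make-up of membranes, muscle and enzymes to it. The proteasome is the protease complex that breaks down proteins tagged with ubiquitin. Its core particle is a barrel of alpha and beta subunits with the cutting sites inside, and its regulatory particle, made of Rpt ATPases and Rpn subunits, binds, unfolds and threads tagged proteins into the barrel. Muscle of the head moves the proboscis and antennae and contracts by the sliding of myosin on actin filaments that troponin and tropomyosin switch on. Whole heads mix neurons, glia, photoreceptors, fat body, muscle and cuticle-forming cells, and in such bulk samples more cells of a type cannot be told apart from more RNA per cell.

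Several properties of the libraries moved with temperature or set 1 library apart. Markers of photoreceptors, neurons, glia, fat body and muscle were all detected, with 0 of their genes at 0 in all libraries. Fat body markers, led by yolk proteins, summed to 46212 and 50569 at 25°C against 11699 to 22452 in the other 6 libraries, and the 10 highest transcripts took 9.47% and 10.05% of the sum at 25°C against 5.55% to 7.16% elsewhere. In the 29°C ZT15 library markers of the midgut summed to 705 those of the accessory gland to 294, those of the testis to 72.5 and those of the ovary to 79.1, against at most 10.1, 1.46, 22.4 and 27.1 in the other libraries, and 590 transcripts were at 0 against 1435 to 1612. The median level of all tested transcripts at 18°C was 0.17 above that at 25°C after scaling to the sum, and 0.05 and 0.01 below it after scaling to the 75th percentile or quantile normalization. With those scalings 63 and 86 genes met the rule, of which 59 and 67 were among the 218. Without the 29°C ZT15 library 233 genes met it. The part of fat body RNA and of the other tissues in the members' values was not tested.

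The 218 members rose at 18°C over 25°C by a median of 0.74 on the log2 scale, and by 0.73 over 29°C, while 29°C and 25°C differed by a median of 0.02. Over all genes tested the median was 0.12 for 18°C over 25°C, 0.05 for 18°C over 29°C and 0.10 for 29°C over 25°C. Over all tested transcripts these medians were 0.17, 0.11 and 0.11. The mean at 18°C was at least 2 times that at 25°C in 44 members. Levels covered a wide range, with 22 members at a mean of 100 or more and 45 under 10. Non-overlap of the 18°C libraries was common in the table at large, since every 18°C library lay above every other library in 3002 transcripts (23.9%), so the rise and the flatness between 25°C and 29°C are what narrowed the set. The rule has no gap at its edges. CG11668, Pvf3 and ps were just inside the smallest rise at 0.60, and cv-2, RN-tre and AP-2mu fell short of it at 0.59 to 0.60. Actn at -0.25, Mp (CG8647) at 0.25 and msn at 0.24 were just inside the limit on 29°C minus 25°C. Just outside were jar and the Lasp transcript CG3849-RB at 0.25 and stw at -0.25. The lowest 18°C library cleared the highest other library by 0.012 in Snx16, 0.029 in Epac and 0.035 in Rpn13, and missed by 0.0037 in CG8671, 0.0046 in fwe and 0.014 in Sh. By mean level CG32817 (5.05), pcx (5.18) and CG42346 (5.37) were the lowest members, and CG15369 (4.80), Delta (4.77) and Skel (4.76) were left out.

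**Figure D1:**
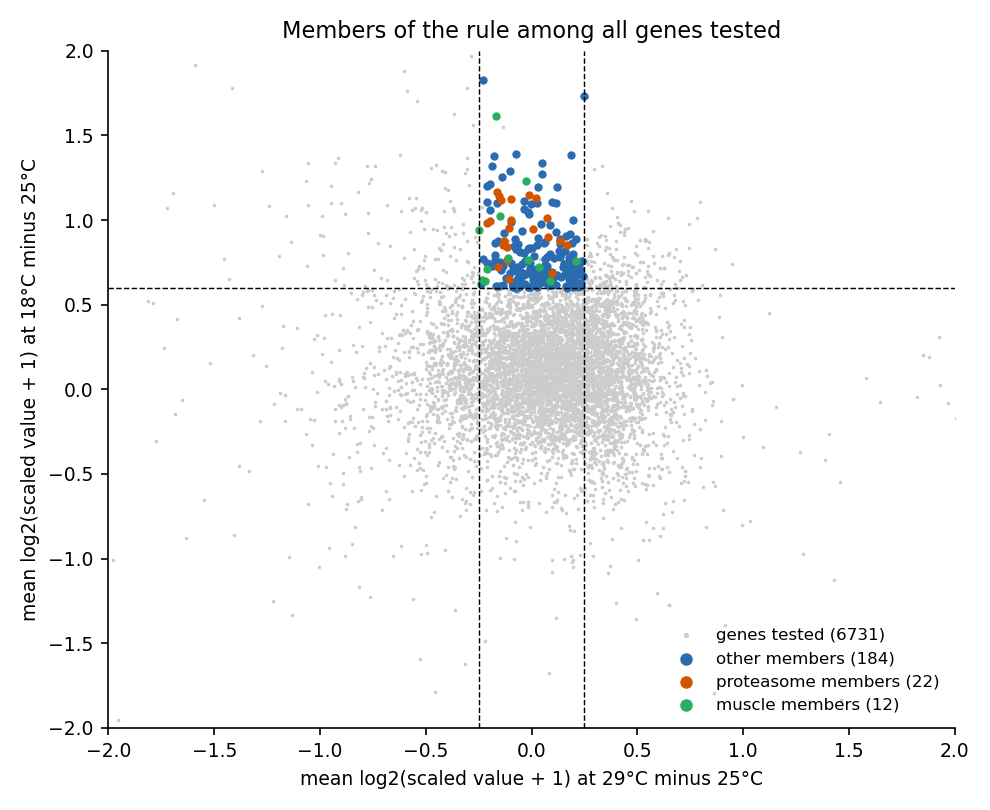
Each of the 6731 genes tested is a grey point for its highest transcript and each member a coloured point, with the difference in mean level of 29°C and 25°C on the horizontal axis and of 18°C and 25°C on the vertical axis, both in log2(scaled value + 1). Dashed lines mark the thresholds of 0.25 and 0.6, grey points inside them overlap between temperatures, and 35 genes lie outside the axes. The 218 members fill the upper middle box by construction, with the 22 proteasome members mostly left of 0 on the horizontal axis and above the line by more than the typical member.

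The largest named group was the proteasome. Genes named for its subunits were looked up by symbol after the members had been seen, and 38 were listed, of which 29 passed a mean of 5. Of these 29, 22 were members, namely 8 of 14 core genes and 14 of 15 regulatory genes. Of the 7 others, Prosalpha4 and Rpn5 passed 0.6 but overlapped with another temperature, and 5 rose by less than 0.6. All 29 lay at least 0.5 above 25°C in the 18°C mean. In 24 of the 29, the 22 members by the rule and 2 others, all 18°C libraries lay above all others, against 23.9% of all transcripts. The 9 listed genes under the mean of 5, among them Rpt6R and Prosbeta2R2, are variants of subunits with a mean of at most 0.90.

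Regulatory particle members rose by a median of 1.00 and by between 0.65 and 1.17. Rpn11, the subunit that removes ubiquitin from arriving proteins, had scaled values of 121, 134 and 68.7 at 18°C, 57.3 and 36.4 at 25°C, and 37.8, 53.1 and 33.6 at 29°C. Its lowest 18°C library was ZT23, still above the highest library elsewhere, and its mean rose 2.31-fold over 25°C, by 1.17 on the log2 scale with SDs of 0.52 at 18°C and 0.45 at 25°C. Rpt3, an ATPase of the base ring, gave 142, 153 and 92.8 at 18°C, 61.0 and 52.1 at 25°C, and 50.1, 66.5 and 52.4 at 29°C. All 18°C libraries lay above all others, ZT3 and ZT15 by a wide margin, and the rise was 1.15. Rpn2, a large scaffold subunit, was at 76.7, 81.6 and 49.1 at 18°C, 35.0 and 26.2 at 25°C, and 28.8, 38.1 and 26.5 at 29°C, a rise of 1.13. Rpn9, a lid subunit, was at 131, 141 and 69.7 at 18°C, 58.5 and 40.8 at 25°C, and 43.0, 53.1 and 36.6 at 29°C, a rise of 1.14. Rpn10, a ubiquitin receptor, was at 116, 124 and 73.8 at 18°C, 54.4 and 46.2 at 25°C, and 48.4, 62.7 and 48.7 at 29°C, a rise of 1.01. Each of these genes repeated the same shape, with ZT3 and ZT15 close together at 18°C and ZT23 between them and the other temperatures. Rpn13, another ubiquitin receptor, had the smallest rise of the proteasome members at 0.65, with 88.3, 97.1 and 58.7 at 18°C against 57.2 and 44.0 at 25°C and 42.6, 52.2 and 45.5 at 29°C. Rpn5, the regulatory gene outside the set, rose by 0.77, but its 18°C ZT23 value of 52.5 lay below the 54.3 of 29°C ZT15.

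Core particle members rose by a median of 0.85, within 0.69 to 0.99. Prosalpha5, an alpha ring subunit, was at 147, 151 and 98.8 at 18°C, 77.0 and 55.0 at 25°C, and 52.2, 71.3 and 47.8 at 29°C. Its rise was 0.99, the largest of the core. Prosbeta5, the subunit with chymotrypsin-like activity, was at 104, 96.2 and 75.9 at 18°C, 61.6 and 51.5 at 25°C, and 59.7, 70.0 and 52.2 at 29°C, and the rise was 0.69. The groups did not overlap in either gene, although 18°C ZT23 exceeded the highest other library by only a small margin in Prosbeta5. The core genes outside the set were Prosalpha2 (0.54), Prosalpha4 (0.67), Prosalpha7 (0.55), Prosbeta1 (0.56), Prosbeta2 (0.52) and a second copy of Prosalpha1, CG30382 (0.52), with the rise over 25°C in brackets. The copies of Prosalpha1, CG18495 and CG30382, are near identical, and how their reads were shared is not known, so their values are uncertain. Prosalpha4 overlapped, with 91.4, 88.9 and 50.3 at 18°C against 52.9 and 40.6 at 25°C and 45.4, 63.8 and 37.6 at 29°C.

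**Figure D2:**
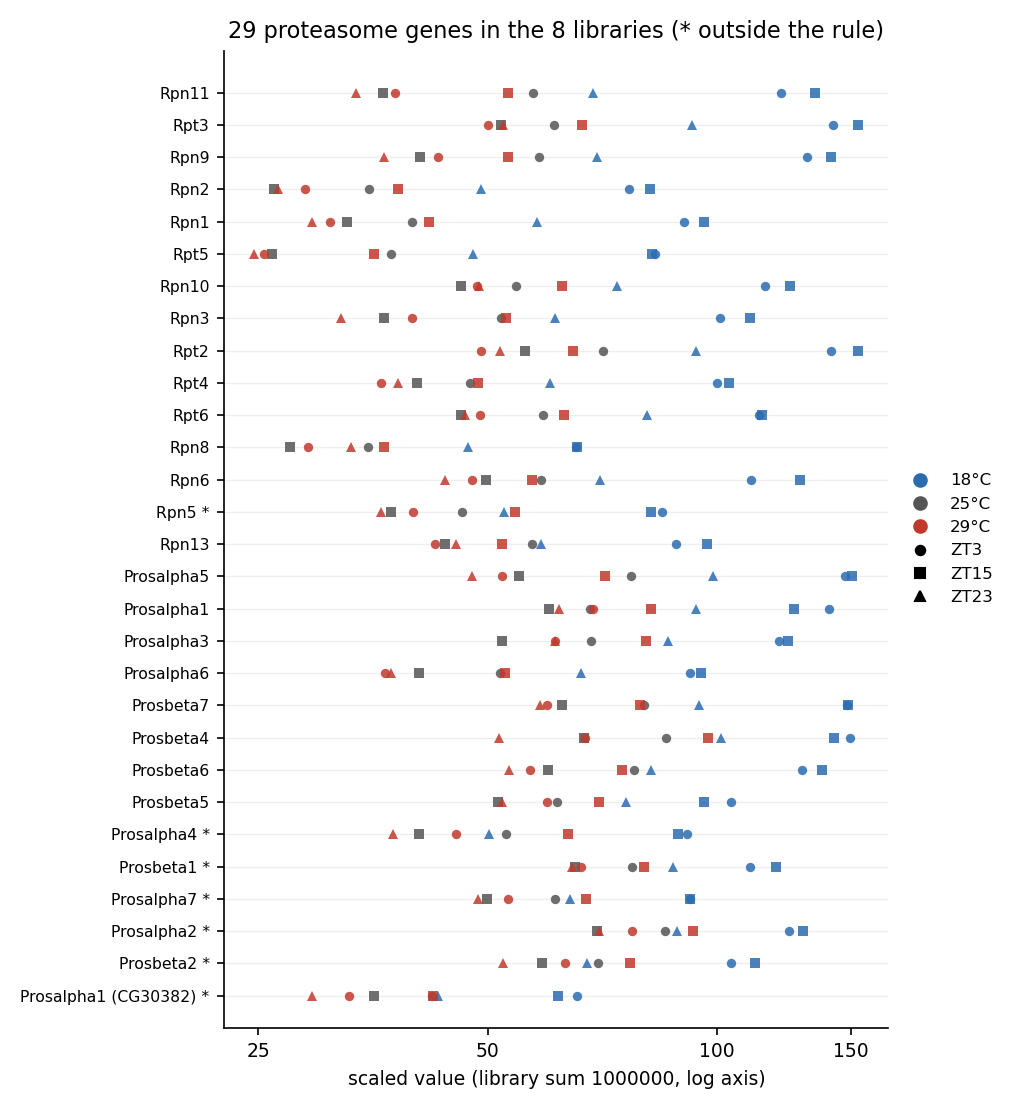
Each row is 1 of the 29 proteasome genes that passed the mean of 5 and each symbol 1 library, coloured by temperature and shaped by time of day, on a log axis of scaled values. In 24 of the 29 rows all 18°C symbols lie to the right of the others, the 18°C ZT23 triangle lies nearest to the other temperatures, and genes with a star, such as Rpn5 with 52.5 against 54.3, missed the rule.

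Proteasome members depended on the 25°C and 29°C libraries at ZT15 and on the scaling. Their median rise was 0.95 after scaling to the sum, 0.71 after scaling to the 75th percentile and 0.73 after quantile normalization, and 22, 11 and 16 of them met the rule, 10 under all 3 scalings. Without the 25°C ZT15 library 10 of the 22 still met it, and without the 29°C ZT15 library 12 did.

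Genes that work around the proteasome were in the set as well. TppII, tripeptidyl peptidase, and Psa, an aminopeptidase, trim the peptides that the proteasome releases. TppII was at 58.7, 61.2 and 36.3 at 18°C, 22.2 and 18.7 at 25°C, and 19.5, 25.8 and 18.7 at 29°C, and it rose by 1.27. Psa was at 61.1, 70.2 and 36.0 at 18°C, 26.3 and 22.4 at 25°C, and 22.5, 28.6 and 20.5 at 29°C, and it rose by 1.11. Both had 18°C ZT23 as the lowest of the 18°C libraries, as the subunits did. Uch-L5 and Usp14 remove ubiquitin at the regulatory particle. Uch-L5 was at 25.7, 22.4 and 14.8 at 18°C, 11.1 and 6.20 at 25°C, and 8.25, 14.0 and 6.56 at 29°C, a rise of 1.20. Usp14 was at 60.04, 64.4 and 34.8 at 18°C, 30.1 and 19.6 at 25°C, and 25.0, 32.5 and 17.0 at 29°C, a rise of 1.05. In Uch-L5 and Usp14 the lowest 18°C library, ZT23, exceeded the 29°C ZT15 library by little, 14.8 against 14.0 and 34.8 against 32.5. Ubr1, a ubiquitin ligase that recognizes the amino-terminal residue of proteins, was at 50.2, 57.7 and 43.2 at 18°C, 18.9 and 31.8 at 25°C, and 27.2, 33.0 and 25.1 at 29°C. It rose by 1.00, and the ligases Ufd4 and Nedd4 by 0.62 and 0.61. Ubi-p63E, which encodes chains of ubiquitin, was at 220.2, 213 and 200.2 at 18°C, 124 and 146 at 25°C, and 129, 160.3 and 119 at 29°C, a rise of 0.64, and scny, a deubiquitinating enzyme, rose by 0.82.

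Other genes of protein breakdown missed the rule, and these were picked after the members' values had been seen. TER94, the ATPase that pulls ubiquitinated proteins from complexes, was 0.53 above 25°C, but its libraries overlapped with 165, 189.6 and 108 at 18°C against 100.4 and 107 at 25°C and 95.6, 130.1 and 92.1 at 29°C. Pomp, which assembles the core, was 0.51 above 25°C. Rad23 (0.03), Ubqn (0.04), PI31 (-0.01) and Npl4 (-0.03), which shuttle or regulate substrates and proteasomes, were within 0.05 of 25°C after scaling to the sum, and at -0.21, -0.19, -0.25 and -0.26 after scaling to the 75th percentile, which turned the sign of Rad23 and Ubqn. Uba1, the ubiquitin-activating enzyme, was at 0.28 and 0.04 under these scalings. REG, an activator that binds the core in place of the regulatory particle, was at 31.6, 36.9 and 25.5 at 18°C against 41.9 and 39.7 at 25°C and 48.9, 52.5 and 40.4 at 29°C. It lay lower in all 18°C libraries, and its difference from the mean of 25°C and 29°C was -0.48 (limma, adjusted p = 0.0283). The gene cnc encodes the transcription factor known in flies to drive proteasome genes, and its transcript was at 70.9, 63.7 and 60.1 at 18°C against 62.9 and 72.9 at 25°C and 53.3, 57.2 and 49.9 at 29°C, where the temperatures overlapped.

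Muscle genes formed a second group of 12 members, with a median rise of 0.76 over 25°C and 0.88 over 29°C. Mhc, the myosin heavy chain, was at 883, 981 and 835 at 18°C, 493 and 611 at 25°C, and 438, 469 and 517 at 29°C. The lowest 18°C library was well above the highest other library, 25°C ZT15, and the rise was 0.71 with an SD of 0.12 at 18°C and 0.22 at 25°C. The thin filament switch was represented by up (troponin T), wupA (troponin I), Tm1 and Tm2 (tropomyosins). For up the values were 567, 514 and 636 at 18°C, 341 and 330.2 at 25°C, and 270.1, 332 and 407 at 29°C, a rise of 0.76. For wupA they were 518, 412 and 496 at 18°C, 303 and 302 at 25°C, and 246, 288 and 239 at 29°C, a rise of 0.64. Tm2 was at 429.8, 366 and 411 at 18°C, 197 and 197 at 25°C, and 148, 174 and 217 at 29°C, a rise of 1.02, and Tm1 rose by 0.64. In up and Tm2 18°C ZT23 was not the lowest library at 18°C, unlike in the proteasome genes.

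The largest rises among muscle genes belonged to tn and tmod. The gene tn (thin) encodes a protein of the TRIM family needed to keep muscle intact, and it was at 160.0, 165 and 92.3 at 18°C, 46.9 and 40.1 at 25°C, and 37.4, 40.7 and 37.6 at 29°C. Its rise of 1.61 was the third largest of the 218. The gene tmod (tropomodulin) caps actin filaments, and it was at 271, 284 and 171 at 18°C, 96.1 and 104 at 25°C, and 86.2, 112 and 97.8 at 29°C, a rise of 1.23. Both fell toward the other temperatures at 18°C ZT23 but did not reach them. Actn, the alpha-actinin of the Z-disc, was at 166, 166 and 158 at 18°C, 76.8 and 92.5 at 25°C, and 60.5, 69.6 and 84.2 at 29°C, and rose by 0.94 over 25°C while 29°C lay -0.25 from 25°C, at the edge of the rule. The giant elastic and signalling proteins bt, sls, Obsc and Strn-Mlck rose by 0.78, 0.72, 0.76 and 0.64. Of these, sls was at 18.3, 20.1 and 19.3 at 18°C against 7.96 and 15.8 at 25°C and 12.8, 11.8 and 10.3 at 29°C, so that 25°C ZT15 was close to the 18°C libraries.

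Other sarcomere genes, outside the set, took several shapes. Mlc2, Mlc1 and Act57B changed from 25°C to 29°C by -0.37, -0.67 and -0.51, past the limit of the rule. Lasp, by its transcript CG3849-RA, was 0.88 above 25°C at 18°C and 0.53 above it at 29°C. Mf was 0.30 above 25°C at 18°C, and Act88F 0.07 above it after scaling to the sum but at -0.13 after scaling to the 75th percentile. Prm and Zasp52 were 0.93 and 0.46 above 25°C at 18°C, and at -0.33 and -0.30 relative to 25°C at 29°C. Lasp, Mf, Prm and Zasp52 were picked after their values had been seen. Act88F is on the muscle marker list, but was named here after its value had been seen. Mlc2, a myosin light chain, was at 2177, 1846 and 1852 at 18°C against 951 and 925 at 25°C and 635, 708 and 853 at 29°C, and was 1.24 higher at 18°C than the mean of 25°C and 29°C (limma, adjusted p = 0.000617). Mlc1 differed by 1.18 (adjusted p = 0.00099) and Act57B by 1.02 (adjusted p = 0.00181) in the same limma fit. Of the 14 muscle markers 6 are members, chosen for 18°C libraries above all others, so the marker sum is not independent of the rule. The 14 markers summed to 8306 to 9719 at 18°C, 5312 and 5330 at 25°C and 3691 to 4559 at 29°C. These sums did not overlap, and 25°C lay between. Of the 13 that passed the mean of 5, limma called 10 higher at 18°C (21.7% of all transcripts were), but 6 of these are members chosen for the rise, which leaves 4. The count was 10 after scaling to the 75th percentile as well.

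Matrix, membrane and cuticle genes made up 18 members with a median rise of 0.87. Mp encodes multiplexin, a collagen of the basement membrane, and was listed under 2 numbers that now share this symbol. CG8647 was at 18.3, 16.3 and 8.15 at 18°C, 3.38 and 3.36 at 25°C, and 4.30, 4.995 and 3.37 at 29°C, a rise of 1.73, and CG33171 was at 26.2, 27.5 and 23.5 at 18°C, 11.9 and 13.4 at 25°C, and 12.5, 14.3 and 12.3 at 29°C, a rise of 0.97. The transcripts of both were separate from all other libraries, with CG8647 at 18°C ZT23 down to 8.15. Meltrin, a membrane-bound metalloprotease of the ADAM family, was at 36.3, 40.4 and 24.6 at 18°C, 10.1 and 14.3 at 25°C, and 12.99, 15.8 and 13.02 at 29°C, a rise of 1.38. NijC, a ninjurin of the cell membrane, was at 17.1, 8.76 and 12.1 at 18°C, 6.31 and 3.45 at 25°C, and 4.23, 5.90 and 2.41 at 29°C, a rise of 1.22, with 18°C ZT15 as its lowest 18°C library. The gene trol encodes perlecan, the large proteoglycan of the basement membrane, and was at 66.9, 73.7 and 65.8 at 18°C, 29.2 and 47.4 at 25°C, and 37.9, 47.4 and 43.2 at 29°C. It rose by 0.87, and the laminin subunit LanB2 by 0.66, dystroglycan (Dg) by 0.72, the integrin scb by 0.89 and the metalloprotease Mmp2 by 0.87. Cda5, a chitin deacetylase, was at 26.96, 28.2 and 17.6 at 18°C against 8.90 and 12.3 at 25°C and 7.34, 11.0 and 8.82 at 29°C, a rise of 1.11.

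Of the 106 listed cuticle proteins 27 passed the mean of 5, and 3 of these were members, as were 218 of all 6731 genes tested. Cpr11B was at 47.7, 50.1 and 39.8 at 18°C, 21.9 and 23.8 at 25°C, and 30.3, 25.2 and 18.8 at 29°C, a rise of 0.97. Lcp65Ac was at 12.03, 9.21 and 7.97 at 18°C, 4.43 and 6.05 at 25°C, and 6.08, 5.22 and 6.73 at 29°C, a rise of 0.78. Cpr47Ea was at 9.05, 11.1 and 5.84 at 18°C, 4.75 and 4.59 at 25°C, and 2.66, 5.34 and 4.17 at 29°C, a rise of 0.73. All 3 are structural proteins of the cuticle with a low or moderate level, and in Cpr47Ea the 18°C ZT23 value of 5.84 was close to the 5.34 of 29°C ZT15. Of the 27 cuticle genes that passed the mean of 5, limma called 18 higher at 18°C than the mean of the other temperatures and 0 lower. Of all transcripts 21.7% were higher and 7.47% lower. After scaling to the 75th percentile 15 cuticle genes were higher and 0 lower, against 1257 and 2398 of 12563 transcripts. Of the 18, 3 are members chosen for the rise. The 15 outside the set included Cpr100A (1.77, adjusted p = 0.000984), Cpr76Bc (1.07, adjusted p = 0.00108) and Cpr62Bb (1.41, adjusted p = 0.00201), by limma with the log2 difference of 18°C from the mean of 25°C and 29°C in front. These 3 fell further from 25°C to 29°C.

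Cell adhesion and guidance molecules made up 16 members, with a median rise of 0.71 and a narrow range up to 0.87. Fas3, an adhesion molecule of the immunoglobulin family, was at 33.7, 32.5 and 27.5 at 18°C, 16.9 and 16.2 at 25°C, and 17.2, 15.8 and 19.1 at 29°C, a rise of 0.87. The teneurins Ten-a and Ten-m, which match partner neurons, rose by 0.70 and 0.68. Ten-m was at 31.8, 33.2 and 31.0 at 18°C against 14.2 and 26.9 at 25°C and 21.9, 25.1 and 22.8 at 29°C, with 25°C ZT3 far below 25°C ZT15. The guidance receptor robo1 rose by 0.61, the guidance cue Sema2b by 0.72, and the engulfment receptor drpr of glia by 0.63.

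Genes of neuronal signalling and ion transport also made up 16 members, with a median rise of 0.72. Atpalpha, the catalytic subunit of the sodium pump, was at 865, 906 and 899.9 at 18°C, 431 and 623 at 25°C, and 509, 600.2 and 600.4 at 29°C. It was the second highest member by level and rose by 0.78, with the 18°C libraries close together and 25°C ZT3 the lowest of the rest. Syt1, the calcium sensor of synaptic vesicle release, was at 169.7, 171 and 174 at 18°C, 83.8 and 151 at 25°C, and 104, 119 and 110.5 at 29°C, a rise of 0.60. The chloride transporters kcc and Ncc69 rose by 0.61 and 0.65. For kcc the values were 170.5, 174 and 164 at 18°C against 107 and 114.95 at 25°C and 99.6, 105 and 93.9 at 29°C. Rgk1, a small GTPase, had the largest rise of the group at 1.06, with 20.6, 28.5 and 14.97 at 18°C against 8.47 and 10.4 at 25°C and 7.35, 10.9 and 9.39 at 29°C. The receptors mGluR, DopEcR, GABA-B-R1 and Oamb rose by 0.83, 0.76, 0.76 and 0.63, and shi, the dynamin of vesicle recycling, by 0.62.

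Regulators of RNA and of transcription were in the set as well. Of the 31 splicing factors that passed the mean of 5, 5 were members, as were 218 of all 6731 genes tested. Doa, a kinase that phosphorylates SR splicing factors, was at 105, 84.7 and 73.3 at 18°C, 46.8 and 45.5 at 25°C, and 48.8, 55.9 and 38.6 at 29°C, a rise of 0.89. The RNA-binding proteins how, mub, sm and ps rose by 0.83, 0.70, 0.63 and 0.60. For ps, a relative of mammalian Nova proteins, the values were 158, 172 and 184 at 18°C, 90.5 and 139 at 25°C, and 110.2, 132 and 139 at 29°C. In ps, mub and sm 25°C ZT15 was much higher than 25°C ZT3, and roq, a relative of mammalian roquin outside the list, rose by 0.78. The 7 transcription factors had a median rise of 0.86. They were Sox14 (1.10), pan (1.10), the Wnt pathway effector, aop (0.88), an ETS repressor, the ecdysone-induced Eip74EF (0.86) and Eip93F (0.75), ken (0.82) and zfh2 (0.70). Sox14 was at 40.5, 42.5 and 26.8 at 18°C against 16.5 and 15.9 at 25°C and 13.2, 16.6 and 13.5 at 29°C. After scaling to the 75th percentile 6 of the 7 genes still had a transcript that met the rule.

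Metabolic members were 6 genes of lipid metabolism and 3 of energy and nucleotide metabolism. CG12268, predicted to reduce fatty acyl-CoA, was at 24.7, 14.7 and 17.8 at 18°C, 8.13 and 5.79 at 25°C, and 4.41, 10.5 and 4.29 at 29°C, a rise of 1.32, with 29°C ZT15 well above the other 29°C libraries. CG31522, an elongase of fatty acids by similarity, rose by 0.99, and CG9747, a fatty acid desaturase by similarity, by 0.75. Glys, glycogen synthase, was the only member among the 13 trehalose, glycogen and polyol genes that passed the mean of 5. It was at 169.7, 164 and 114.7 at 18°C, 109 and 85.2 at 25°C, and 95.9, 80.7 and 96.4 at 29°C, a rise of 0.61. The libraries of Glys at 18°C ZT23 and 25°C ZT3 were close. Enzymes AMPdeam (AMP deaminase) and Ak3 (an adenylate kinase) rose by 0.62 and 0.69.

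The member with the highest level was Obp44a, of the odorant-binding protein family, at 2754, 2212 and 2926 at 18°C, 1434 and 1336 at 25°C, and 1593, 1390.0 and 1745 at 29°C. Its rise was 0.92, and the means were 2631 ± 373 at 18°C (SD, n = 3), 1385 ± 69.1 at 25°C (SD, n = 2) and 1576 ± 178 at 29°C (SD, n = 3). Sirup, an assembly factor of the succinate dehydrogenase of mitochondria, was at 311, 273 and 329.9 at 18°C, 143 and 174 at 25°C, and 133, 155 and 175 at 29°C, a rise of 0.94. Cpn, calphotin of the photoreceptor, was at 250.4, 256 and 156 at 18°C, 143 and 98.8 at 25°C, and 125, 120.2 and 119 at 29°C, a rise of 0.85. CG6329 was at 249.6, 249.9 and 244 at 18°C, 113 and 175 at 25°C, and 123, 148 and 137 at 29°C, a rise of 0.81. Obp44a, Sirup and CG6329 did not have ZT23 far below the other 18°C libraries, and Cpn did.

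The largest rise of all belonged to Jhbp7, named as a juvenile hormone binding protein. It was at 35.0, 32.4 and 19.4 at 18°C, 8.84 and 5.81 at 25°C, and 3.85, 11.9 and 4.42 at 29°C, a rise of 1.83. Its 29°C ZT15 value lay far above the other 29°C libraries, so the spread at 29°C was wide. CG17127 was at 9.81, 5.96 and 14.1 at 18°C, 4.16 and 2.07 at 25°C, and 3.02, 1.29 and 4.86 at 29°C, a rise of 1.39. CG13071 was at 85.01, 62.995 and 45.4 at 18°C, 24.5 and 22.4 at 25°C, and 21.5, 20.9 and 19.4 at 29°C, a rise of 1.38. Nna1, a carboxypeptidase known in mammals to trim glutamates from tubulin, was at 32.7, 29.2 and 26.2 at 18°C, 11.7 and 10.2 at 25°C, and 9.89, 13.1 and 11.3 at 29°C, a rise of 1.34. In Nna1 the lowest 18°C library, ZT23 at 26.2, was well clear of the highest other library, 29°C ZT15 at 13.1. CG18367 (1.29), CG17746 (1.26), CG32523 (1.20) and CG16959 (1.20) completed the 20 largest rises, together with genes described above. CG32523 was at 54.0, 50.6 and 73.8 at 18°C against 24.3 and 25.6 at 25°C and 29.1, 18.3 and 18.4 at 29°C, with ZT23 as its highest library, against the order seen in most members.

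The rule did not name time of day. It did require every 18°C library to lie above all others, so a large swing over the day could keep a transcript out. Time of day was tested with limma in a model with temperature and ZT. The share of members called is therefore not independent of the selection. Between ZT15 and ZT3 0 of the 218 members passed an adjusted p of 0.05, with 5 of all transcripts passing (0.0398%), and 72 members had an unadjusted p under 0.05, as did 1648 of all 6731 genes tested. Between ZT23 and ZT15 2 members were lower at ZT23 and 1 was higher, where 3.39% of all transcripts were lower and 0.374% higher. Without adjustment 88 members were lower at ZT23, and 1544 of all 6731 genes tested were. The genes called were aos, a secreted inhibitor of the EGF receptor, at -0.69 (SE 0.10, adjusted p = 0.0196), Npc1a, a sterol transporter, at -0.50 (SE 0.094, adjusted p = 0.0375), and CG17127 at 1.24 (SE 0.099, adjusted p = 0.0180). For aos the values were 18.5, 20.9 and 12.4 at 18°C, 7.65 and 10.2 at 25°C, and 8.60, 10.6 and 6.55 at 29°C. Npc1a was at 43.9, 45.9 and 34.5 at 18°C, 24.4 and 27.5 at 25°C, and 25.9, 29.5 and 19.5 at 29°C. ZT23 was below ZT15 at both temperatures with a ZT23 library in aos and Npc1a, and above it in CG17127. All 3 calls were lost when any of 5 libraries was left out (18°C ZT23, both at 25°C, 29°C ZT15 or 29°C ZT23), which left 0 calls over all transcripts, and only CG17127 was called under every scaling.

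At 18°C ZT23 was the lowest library in 143 of the 218 members (65.6%), against 39.9% of all genes tested. All 22 proteasome members and all 9 members of ubiquitin and peptide turnover had it lowest. In muscle it was 7 of 12 and in neuronal signalling and ion transport 7 of 16. Proteasome members were lower at ZT23 than at ZT15 by a median of 0.72 at 18°C and 0.43 at 29°C, and in all 22 at both temperatures, while the medians over all genes tested were 0.08 and 0.15. None of the 22 passed the adjusted test for ZT23 against ZT15, and 16 were lower at an unadjusted p under 0.05, against the 1544 of 6731 genes given above. At 25°C the proteasome members were lower at ZT15 than at ZT3 in 22 of 22, and at 29°C higher at ZT15 in 22 of 22. Of the 196 members outside the proteasome, 69.4% were higher at ZT15 at 25°C and 82.7% at 29°C, as were 62.7% and 74.4% of all genes tested.

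**Figure D3:**
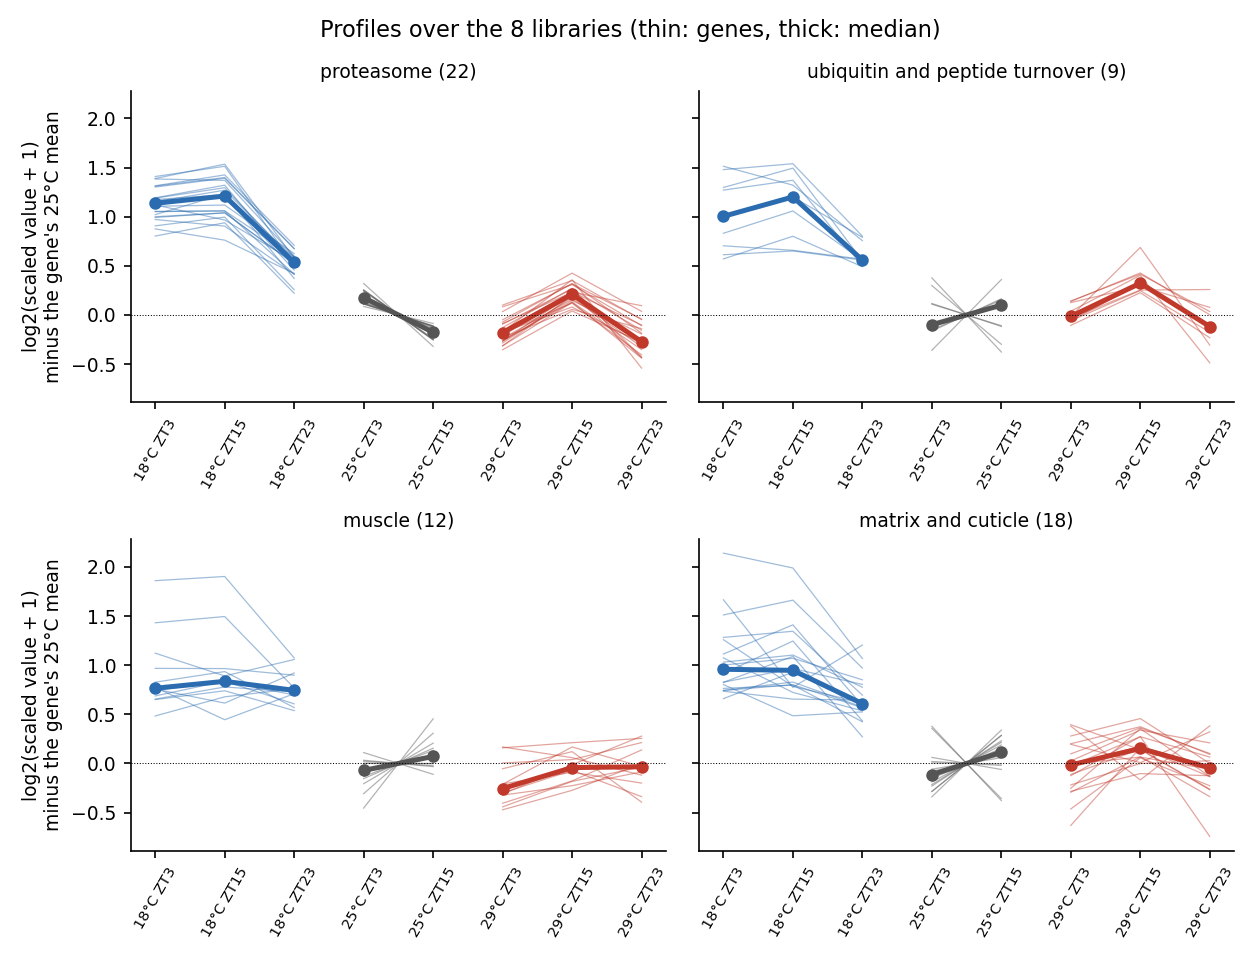
Each thin line is 1 member gene and the thick line the group median over the 8 libraries, in log2(scaled value + 1) minus the gene's mean at 25°C, with 18°C in blue, 25°C in grey and 29°C in red. Proteasome genes run close together and drop at 18°C ZT23 by a median of 0.72 from ZT15, whereas the muscle genes drop there by a median of 0.10.

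Members differed in how many transcripts carried them. Of the 218 genes, 89 had 1 transcript that passed the mean of 5 and 129 had 2 or more, and in 86 of them all met the rule. Mhc met it with 13 of 13 transcripts, Doa with 12 of 12, Atpalpha with 9 of 9 and wupA with 7 of 7, where transcripts share most of their exons. In 24 genes only 1 did, such as Nedd4 with 1 of 7, and NijC and Pgant9 with 1 of 5. Tm1 met it with 3 of 12. All 96 transcripts of member genes that passed the mean of 5 and missed the rule also had a higher mean level at 18°C, by a median of 0.60 over 25°C, and 51 of them differed by more than 0.25 between 25°C and 29°C. The numbers CG42353 and CG42354 carry 1 current symbol and identical values in every library, so they are 1 measurement counted under 2 numbers. Mp and ReepA were also listed under 2 numbers each, and the 218 members carry 214 current symbols.

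Members lay on all chromosome arms, with 37 on 2L, 54 on 2R, 37 on 3L, 48 on 3R, 4 on chromosome 4 and 38 on X by the Release 6 annotation. These are 2.902% to 5.63% of the tested genes of each arm. The members were long. Their longest annotated transcript in BDGP6 had a median of 4316 nt, against 2249 nt over all genes tested, and 26.6% of the members had one of 6000 nt or more against 10.7% of all genes. Length moved with temperature across the table. Genes under 1500 nt lay a median of 0.06 lower at 18°C than at 25°C and genes of 6000 nt or more 0.44 higher, and from ZT3 to ZT15 at 25°C the same bins differed by -0.07 and 0.51. Its part in the members' rise was not tested. The proteasome members were short, with a median of 1444 nt, and those of cell adhesion and guidance long, with 6224 nt.

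**Figure D4:**
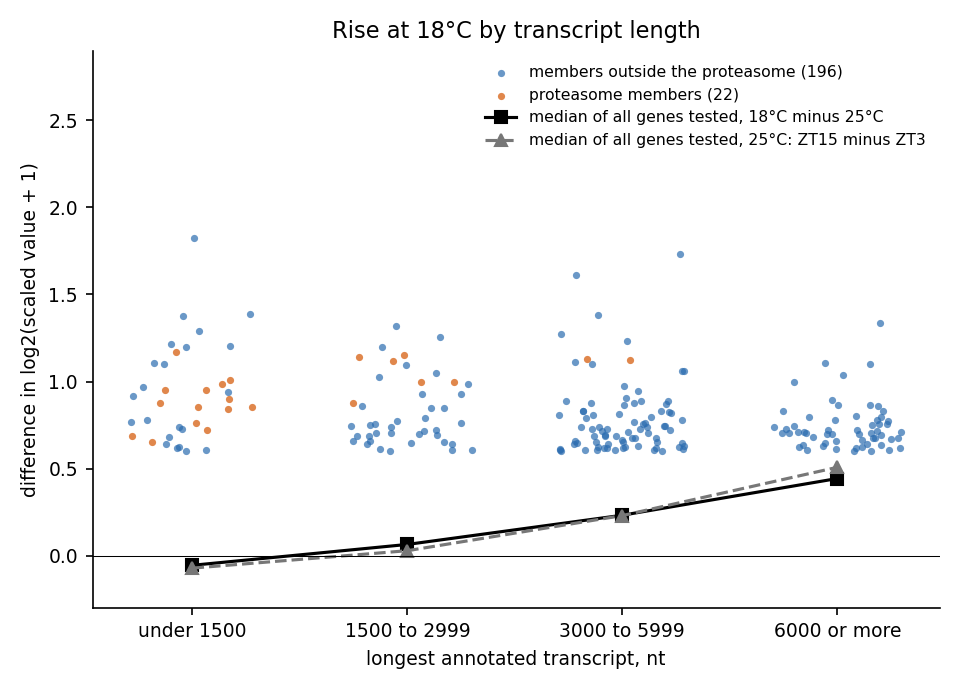
Points are the 218 members by bins of the longest annotated transcript of the gene (horizontal axis, nt, spread sideways at random within a bin) and their rise at 18°C over 25°C in log2(scaled value + 1). The black line, the median of all genes tested, climbs from -0.06 to 0.44, the grey dashed line between the 2 libraries at 25°C climbs alike from -0.07 to 0.51, and most proteasome members sit in the short bins.

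The size of the rise moved with the scaling. The median of the 218 members was 0.74 after scaling to the sum, 0.52 after scaling to the 75th percentile and 0.54 after quantile normalization, a shift like that of the median over all tested transcripts, which went from 0.17 to -0.05 and -0.01. The 52 genes that met the rule under all 3 scalings included Mp, Meltrin, tn, tmod, Tm2, Nna1, TppII, Uch-L5, Rpt3, Rpn2 and Obp44a. Members near the threshold, such as Syt1 and ps, dropped to 0.36 under the 75th percentile.

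**Figure D5:**
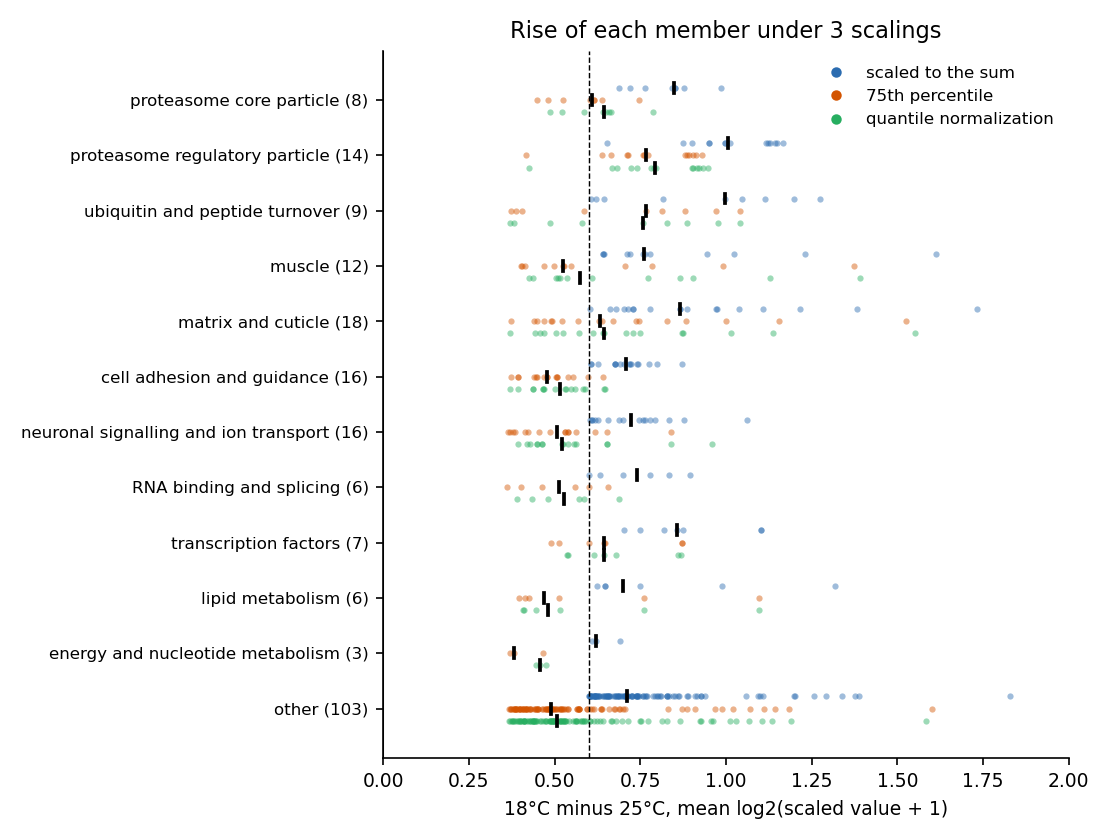
Each point is a member, by functional group with its number of genes, and its rise at 18°C over 25°C in log2(scaled value + 1) under 3 scalings, with black bars at the group medians and a dashed line at the threshold of 0.6. Scaling to the 75th percentile and quantile normalization move all groups to the left by a similar amount, from a median of 0.74 to 0.52 and 0.54 over all members.

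Gene lists drawn up for the tissue and for cold give the setting of the members. In the limma fit of 18°C against the mean of 25°C and 29°C, 2725 of all transcripts were higher at 18°C (21.7%) and 939 lower (7.47%). The split turned to 1257 higher and 2398 lower after scaling to the 75th percentile and 1572 and 1937 after quantile normalization, and with zeitgeber time as a replicate block 4683 were higher and 1396 lower. Between 29°C and 25°C 289 transcripts passed (2.3%), or 1512 with the block. The median difference of 18°C from the mean of 25°C and 29°C over all genes tested was 0.09. A difference between 25°C and 29°C enters this contrast, so a call in it can rest on 29°C alone or on 25°C alone.

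Among lists with members, ion channels and pumps had 12 of 42 genes higher and 0 lower, where 21.7% of all transcripts were higher. Of the 12, 3 are members chosen for the rise, which leaves 9. The 9 included nrv2, the beta subunit of the sodium pump (0.78, adjusted p = 0.00099), the sodium-calcium exchanger Nckx30C (0.73, adjusted p = 0.0166) and nAChRbeta2, a subunit of acetylcholine receptors (0.58, adjusted p = 0.0035), by limma. Brackets here and for the genes that follow give the log2 difference of 18°C from the mean of the warmer temperatures and limma's adjusted p. Trehalose, glycogen and polyol genes had 6 of 13 higher, 5 of them outside the set, and 0 lower. Among the 5 were the glycogen enzymes AGBE (1.55, adjusted p = 0.00139) and Glyp (0.98, adjusted p = 0.00265) and the glycerol phosphate enzyme Gpdh1 (0.63, adjusted p = 0.00378) by limma. Relative to 25°C, AGBE, Glyp and Gpdh1 were at 1.10, 0.71 and 0.33 at 18°C and at -0.90, -0.53 and -0.60 at 29°C. After scaling to the 75th percentile these lists had 6 higher and 2 lower, and 4 higher and 0 lower, and with time point as a replicate block 24 and 0, and 7 and 0. Splicing factors split, with 6 higher and 4 lower of 31, of which 2 and 4 lay outside the set. With members included, the counts were 3 and 11 after that scaling and 11 and 6 with the block. Higher outside the set were heph (0.47, adjusted p = 0.0456) and Hrb87F (0.37, adjusted p = 0.0349), and the lower genes included tra (-0.52, adjusted p = 0.00777) and U2af38 (-0.45, adjusted p = 0.0124).

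Other lists held 0 members. Ribosomal proteins were lower at 18°C in 77 of 82 and higher in 0, led by RpS20 (-1.17, adjusted p = 0.000412), RpS29 (-0.88, adjusted p = 0.000902) and RpL37-1 (-0.87, adjusted p = 0.000919) in limma's fit. Antimicrobial peptides and recognition proteins were lower in 15 of 27 and higher in 0, led by IM18 (-3.14, adjusted p = 0.000412), DptB (-3.75, adjusted p = 0.000576) and AttC (-2.57, adjusted p = 0.00105). Chaperones were lower in 2 of 10, Hsc70-4 (-0.67, adjusted p = 0.00175) and DnaJ-1 (-0.64, adjusted p = 0.00615) by limma. Relative to 25°C, Hsc70-4 and DnaJ-1 were at -0.30 and -0.19 at 18°C and at 0.75 and 0.89 at 29°C. The cold response list had 3 of 5 higher, the calcium-binding relatives smp-30 (0.92, adjusted p = 0.00182) and regucalcin (0.36, adjusted p = 0.0357) and the chaperone cofactor stv (0.36, adjusted p = 0.0208) by limma. Relative to 25°C, smp-30, regucalcin and stv were at 0.16, 0.05 and 0.52 at 18°C and at -1.52, -0.63 and 0.31 at 29°C. Detoxification enzymes were higher in 16 and lower in 9 of 71, with GstE13 (1.00, adjusted p = 0.000995), Cyp4d8 (0.83, adjusted p = 0.00228) and GstE14 (0.93, adjusted p = 0.0026) higher and Cyp9c1 (-1.11, adjusted p = 0.000752) lower. Scaling to the 75th percentile gave 0 higher and 80 lower ribosomal genes, 0 and 18 antimicrobial, 0 and 7 chaperones, 1 and 0 of the cold response and 8 and 15 of detoxification. With time point as a replicate block these lists had 0 and 78, 0 and 15, 1 and 2, 4 and 0, and 23 and 11.

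Membrane lipid synthesis had 4 of 18 higher, including ACC, which starts fatty acid synthesis (0.51, adjusted p = 0.00892), the ceramide synthase schlank (0.45, adjusted p = 0.036) and Cds (0.39, adjusted p = 0.0399) in limma's fit. Relative to 25°C, ACC, schlank and Cds were at 0.42, 0.37 and 0.14 at 18°C and at -0.18, -0.17 and -0.50 at 29°C. Nutrient signalling had the insulin receptor InR (0.45, adjusted p = 0.0351), Ilp5 (0.58, adjusted p = 0.0228) and Sik3 (0.46, adjusted p = 0.0134) higher by limma, and NPF (-0.58, adjusted p = 0.0044), Lsd-1 (-0.63, adjusted p = 0.0103) and Ilp2 (-0.61, adjusted p = 0.0177) lower, of 20. Ilp5 was lower at 18°C than at 25°C, at -0.30, and its call came with -1.77 at 29°C relative to 25°C. On the same scale InR was at 0.78 at 18°C and 0.68 at 29°C, so its 25°C libraries were low. Sik3 was at 0.50 and 0.07. Juvenile hormone genes had the receptor gce (0.49, adjusted p = 0.0238) higher and Jheh2 (-0.51, adjusted p = 0.034) lower, among 2 higher and 1 lower of 8. The clock list had Pdfr, the receptor of the clock peptide PDF (0.47, adjusted p = 0.0191), higher of 15. After scaling to the 75th percentile 0 genes of these 4 lists were higher, and 2, 5, 2 and 1 were lower. With the replicate block 5, 4, 3 and 4 were higher and 0, 4, 1 and 0 lower.

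Markers of cell types moved with temperature beside the members. Glia had 7 of 9 markers higher, including Eaat1 (0.80, adjusted p = 0.00302) and Gs2 (0.55, adjusted p = 0.00693) by limma, and 5 after scaling to the 75th percentile. Their sum was 1844 to 1877 at 18°C, 1385 and 1461 at 25°C and 943 to 1069 at 29°C. Photoreceptors had ninaC (0.61, adjusted p = 0.00386) higher and Arr2 (-0.50, adjusted p = 0.0152) and the rhodopsin ninaE (-0.59, adjusted p = 0.0157) lower of 14, and their sum was 15135 to 19961 at 18°C, 18801 and 20383 at 25°C and 24354 to 29643 at 29°C. Neuron markers had 1 of 9 higher, the member Syt1, and summed to 728 to 809.6 at 18°C, 519 and 735 at 25°C and 638 to 682 at 29°C. Fat body had Obp99c (0.41, adjusted p = 0.0117) higher and sxe2 (-0.92, adjusted p = 0.00588) and the yolk protein Yp1 (-0.77, adjusted p = 0.0189) lower of 10 by limma. The list named Obp99b, and Obp99c was taken for it by synonym, so the higher call is not that of a chosen marker. Obp99c is also part of the fat body sums given above. Blood cells had the phenoloxidases PPO1 (-2.23, adjusted p = 0.000122) and PPO2 (-2.14, adjusted p = 8.6e-06) lower of 8, and chemosensory organs had Obp19d (-1.13, adjusted p = 0.00175) lower of 4. After scaling to the 75th percentile photoreceptors had 1 higher and 5 lower, neurons 1 and 0, fat body 0 and 3, so that the call of Obp99c was lost, blood cells 0 and 5 and chemosensory organs 0 and 1. With the replicate block glia had 8 higher and 0 lower, photoreceptors 2 and 4, neurons 3 and 0, fat body 1 and 2, and blood cells 0 and 4. The lists for midgut, testis, accessory gland and ovary had 3, 1, 3 and 2 genes at a mean of 5 and 0 calls in limma's adjusted test, with 1 lower for the testis after scaling to the 75th percentile. The part of these cell types in the members' rise was not tested.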

How the data were processed

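The authors deposited, for each library, the average coverage per base pair of every transcript annotated in dm3, a signal and not a count. The submitters' processing notes name Bowtie2, TopHat and Cufflinks, with no versions. RNA had been extracted with Trizol, selected for polyA tails, fragmented and ligated to barcoded linkers. The table listed 18387 transcripts of 11500 genes. A further 56 unnamed columns of values were not used, and coordinates were not used because the annotation at hand is of another build. Of the 218 members, 206 received current symbols, chromosome arms and lengths from BDGP6 by accession and 12 by CG number.

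Columns were scaled to a sum of 1000000, log2(scaled value + 1) was taken, and transcripts at a mean of 5 or more entered linear models in limma (version 3.58.1, R version 4.3.3, Benjamini-Hochberg, threshold 0.05, two-sided, all libraries). Temperature was fitted alone, and time of day together with temperature. Libraries of 18°C and 29°C at the same time point deviated together from their temperature means (correlation over transcripts of 0.113 at ZT3, 0.252 at ZT15 and 0.393 at ZT23), so the pairing by time point was also fitted as a replicate block. Tables and plots were made with Python 3.11.15, pandas 2.3.3 and matplotlib 3.10.9. The procedure was tested on simulated data. Pseudocounts, filters, scalings, limma's trend and each library left out were tried as alternatives.

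The members and gene lists were chosen with earlier results of these data known, and role groups, proteasome genes and related genes were assembled after the members had been seen. Genes named in the text were the 20 members with the largest rise, the 10 with the highest mean, members of the lists, the nearest 3 on each side of each threshold, members called for time of day, and up to 3 genes outside the set per list and direction, of which some are not reported here. Members named for their group, and their neighbours in the pathway, were added after their values had been seen. p-values measure the spread between these libraries only.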

Additional observations from a re-analysis of the deposited data

Results flagged for a closer look

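Proteasome members moved in opposite directions from ZT3 to ZT15 at 25°C and 29°C. The median difference of ZT15 and ZT3 over the 22 genes was -0.35 at 25°C, where every gene was lower at ZT15, and 0.39 at 29°C, where every gene was higher, on the log2(scaled value + 1) scale. Rpn11 went from 57.3 to 36.4 at 25°C and from 37.8 to 53.1 at 29°C. With 1 library for each temperature and time, the difference was not tested, and the genes of 1 complex are not separate replicates. The 29°C ZT15 library is also the one with midgut and accessory gland transcripts, whose part in this was not tested.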

How the results depend on the processing

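The split of calls at 18°C into higher and lower, the median over all transcripts and the small differences of Rad23, Ubqn and Act88F turned sign with the scaling, as given above. Of 1778 values of 127 named members under alternatives, 280 moved by more than the SD of the 18°C libraries, and their sign is fixed by the rule and shows nothing. Of 928 values of 58 list genes outside the set, 106 lost the call and 0 changed sign. The alternatives on the proteasome count, the median rises and single genes were chosen after seeing the data. The number of members went from 218 to 63 after scaling to the 75th percentile and 86 after quantile normalization, the proteasome members from 22 to 11 and 16, and the median rise from 0.74 to 0.52 and 0.54. Leaving out each library gave 194 to 288 members, 10 to 22 proteasome members and a median rise of 0.66 to 0.86. Calls at 18°C against the other temperatures went from 3664 to 6079 with the replicate block and to between 1558 and 4717 with a library left out, lowest without 18°C ZT3 and 1700 without 18°C ZT15. Calls between 29°C and 25°C went from 289 to 138 at a minimum of 1, 114 with no filter, 608 and 639 with the other scalings, 1512 with the block, and 4 to 1542 with a library left out. Between ZT15 and ZT3 the 5 calls became 0 at a pseudocount of 0.1, a minimum of 1 or no filter, 31 at a pseudocount of 5, 17 and 11 with the other scalings, 29 with limma's trend and 0 to 42 with a library left out. Between ZT23 and ZT15 the 473 calls became 0 at a minimum of 1 or no filter, 254 and 164 with the other scalings and 0 to 328 with a library left out. The cause was not tested. Where 1 library of 25°C was left out, the remaining one was assumed to vary like the other groups. Depth is unknown, so the precision of low values cannot be given.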
